A study of Homo sapiens with 34 samples.

Results

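A set of 9 genes that type I interferon switches on was followed through cardiac differentiation of human embryonic stem cells carrying shRNAs against cardiac transcription factors: IFIT1, IFIT2, IFIT3, IFI6, ISG15, MX1, OAS1, IFIH1 and DDX58. These members were chosen by symbol among 23189 gene symbols in the table of raw read counts, with the RefSeq row of the largest total taken for each gene. H1 is an established line of human embryonic stem cells. All cells carried a lentiviral shRNA vector and had been selected with puromycin, including the WT controls, whose vector targeted GFP or was empty, so no group was free of virus. In the other lines the hairpin was directed at NKX2-5, at ZEB2 or at ZNF503, each line being the best of several hairpins tested for that gene and therefore a single hairpin. Differentiation started with the GSK3β inhibitor CHIR99021 and was followed by the Wnt inhibitor IWP2, with insulin added later, and total RNA was sequenced at days 0, 2, 6 and 10. There were 2 libraries for each line and day, 30 libraries in 15 groups. At day 10 replicates 3 and 4 of WT and ZEB2 shRNA were used, and ZNF503 shRNA was not analysed at that day.

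Interferon-stimulated genes are the effector arm of the innate response to viruses. Receptors that sense foreign RNA inside the cell, among them RIG-I (encoded by DDX58) and MDA5 (encoded by IFIH1), signal through the mitochondrial adaptor MAVS to interferon regulatory factors, which induce interferon. Secreted interferon binds IFNAR1 and IFNAR2, and JAK kinases then activate a transcription factor complex that includes STAT2 and IRF9 and binds the interferon-stimulated response element in target promoters. Pluripotent cells are known to respond weakly to interferon and to gain the response as they differentiate. Among the effectors, the IFIT proteins bind viral RNA and block its translation, MX1 is a GTPase that traps viral nucleocapsids, OAS1 makes the oligoadenylates that activate RNase L, ISG15 is a ubiquitin-like modifier and IFI6 is a small membrane protein that inhibits cell death.

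In the RefSeq promoter windows (build GRCh38.p14, 250 bases before to 50 bases after the start of each gene), the core of the response element, searched on both strands as GAAA, any 2 bases and GAAA, was present in 8 of the 11 windows of the members (8 members had at least 1 window) and in 3.57% of all 35116 windows. IFIT1, IFIT3, IFI6, ISG15, MX1 and IFIH1 held a match to this pattern, and OAS1 and DDX58 did not. The OAS1 and DDX58 windows did hold gaaacgaaa, with 1 base between the repeats, a spacing that the search did not cover. The stretches around the matches in the first window of each gene are shown for the members that hold a match and passed 5% FDR against WT on at least 1 day. They are read 5′ to 3′ on the strand of the gene, with the matches in capitals (a match on the opposite strand reads TTTC, any 2 bases and TTTC). The IFIT1 stretch lies at chr10:89392497-89392539, that of IFIT3 at chr10:89327831-89327894, that of ISG15 at chr1:1013374-1013409, that of MX1 at chr21:41420559-41420588 (all on the plus strand), and that of IFI6 at chr1:27672266-27672358 on the minus strand.
IFIT1: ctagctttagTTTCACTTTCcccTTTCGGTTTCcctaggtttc
IFIT3: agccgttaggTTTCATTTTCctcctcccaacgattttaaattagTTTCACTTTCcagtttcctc
ISG15: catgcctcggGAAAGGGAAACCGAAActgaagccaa
MX1: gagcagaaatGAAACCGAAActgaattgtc
IFI6: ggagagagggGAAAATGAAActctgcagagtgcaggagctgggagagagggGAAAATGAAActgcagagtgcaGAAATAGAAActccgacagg
The matches began 116 and 103 bases before the start of IFIT1, 156 and 122 before that of IFIT3, and 156, 115 and 93 before that of IFI6. In ISG15 they began 113 and 107 bases before the start and overlapped each other. In MX1 the match of this window lay 11 bases after the start. Window 2 of IFIT3, not shown, held matches 94 and 51 bases before its start. Window 3 of MX1 held a match 196 bases before its start, and window 2 of MX1 held none. A match is a description of these letters only, and the genes that share it did not share a time course below.

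On GRCh37, the build of the reads, IFIT2 (chr10:91043451-91069028), IFIT3 (chr10:91087064-91137230) and IFIT1 (chr10:91152303-91166244) lie side by side on the plus strand, all inside the span of LIPA (chr10:90973326-91174314), which is transcribed from the minus strand. MX1 (chr21:42791947-42841998, plus strand) overlaps the end of TMPRSS2 on the opposite strand, and OAS1 (chr12:113343661-113371024, plus strand) overlaps a lncRNA on the opposite strand. IFI6 (chr1:27992575-27998723, minus strand) and ISG15 (chr1:936518-949920, plus strand) overlap lncRNAs, DDX58 (chr9:32455300-32526206, minus strand) overlaps another gene model of its own strand, and IFIH1 (chr2:163123584-163175194, minus strand) overlaps no gene. The library kit kept strand, but the sources do not state whether reads were counted by strand, so reads of a member and of its antisense partner cannot be told apart here.

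Library totals ran from 9189943 to 90814577 counts. With the shallowest library at WT day 10, a member at a few counts there was near the limit of detection. At day 6 each targeted gene was lower than in WT in its own line, but the decrease was not particular to the line that targeted it. NKX2-5 was at 84.2 and 50.4 CPM (read counts scaled to library size) in WT and 0.993 and 0.761 in its line, ZNF503 at 8.71 and 9.33 in WT and 0.611 and 0.648 in its line, and ZEB2 at 96.8 and 94.1 in WT and 54.6 and 57.1 in its line. ZNF503 was also lower with NKX2-5 shRNA (log2 fold change -3.55, against -3.84 in its own line), NKX2-5 with ZNF503 shRNA (-4.78, against -6.30) and ZEB2 with ZNF503 shRNA (-3.01). In its own line the ZEB2 decrease was smaller (log2 fold change -0.77, SE 0.122, adjusted p = 0.00136), and at day 10 it did not pass (log2 fold change -1.02, adjusted p = 0.0793). The pluripotency factor POU5F1 lay between 802 and 954 CPM at day 0, and the summed CPM of 6 cardiomyocyte markers at day 6 was 8.74e+03 to 1.1e+04 in WT, 4.93e+03 to 5.34e+03 with ZEB2 shRNA, 151 to 207 with ZNF503 shRNA and 36.5 to 45.9 with NKX2-5 shRNA, so the lines did not hold like cells at that day. In bulk RNA, fewer cells of a type and less RNA per cell cannot be told apart.

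In WT cells the 9 genes followed different courses rather than a common one. IFIT1 was low in stem cells, at 1.47 and 1.78 CPM, and higher on every later day, at 11.9 and 9.87 on day 2, 53.8 and 50.1 on day 6 and 32.5 and 31.1 on day 10. Against day 0 its log2 fold changes were 2.80, 5.02 and 4.35 (edgeR quasi-likelihood test, adjusted p = 1.87e-06, 8.71e-09 and 1.55e-08), each past the thresholds that the study set for fold change and false discovery rate (2-fold and 10% at day 0, 4-fold and 10% at day 2, 8-fold and 1% at days 6 and 10). A gene past both is referred to as called. IFIT2, of the same gene cluster and the member of the family linked to cell death, was instead present on a single day. It had 0 and 4 reads at day 0, 17.6 and 16.6 CPM at day 2, and 0.206 and 0.215 CPM (4 and 2 reads) at day 10. The same day 2 peak of IFIT2 was measured in all lines, with 17.6 and 15.7 CPM for NKX2-5 shRNA, 16.2 and 13.8 for ZEB2 shRNA and 6.56 and 7.51 for ZNF503 shRNA, against at most 0.107 CPM in any library at day 0 and 0.401 at day 6. IFIT2 was called against day 0 in each of the 4 lines, as were 8.36%, 8.94%, 10.7% and 4.03% of all genes in WT, NKX2-5, ZEB2 and ZNF503 shRNA. OAS1, too, had its highest levels at day 2 in WT, at 0.482 and 0.368 CPM, although these were 21 reads in both libraries together.

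**Figure D1:**
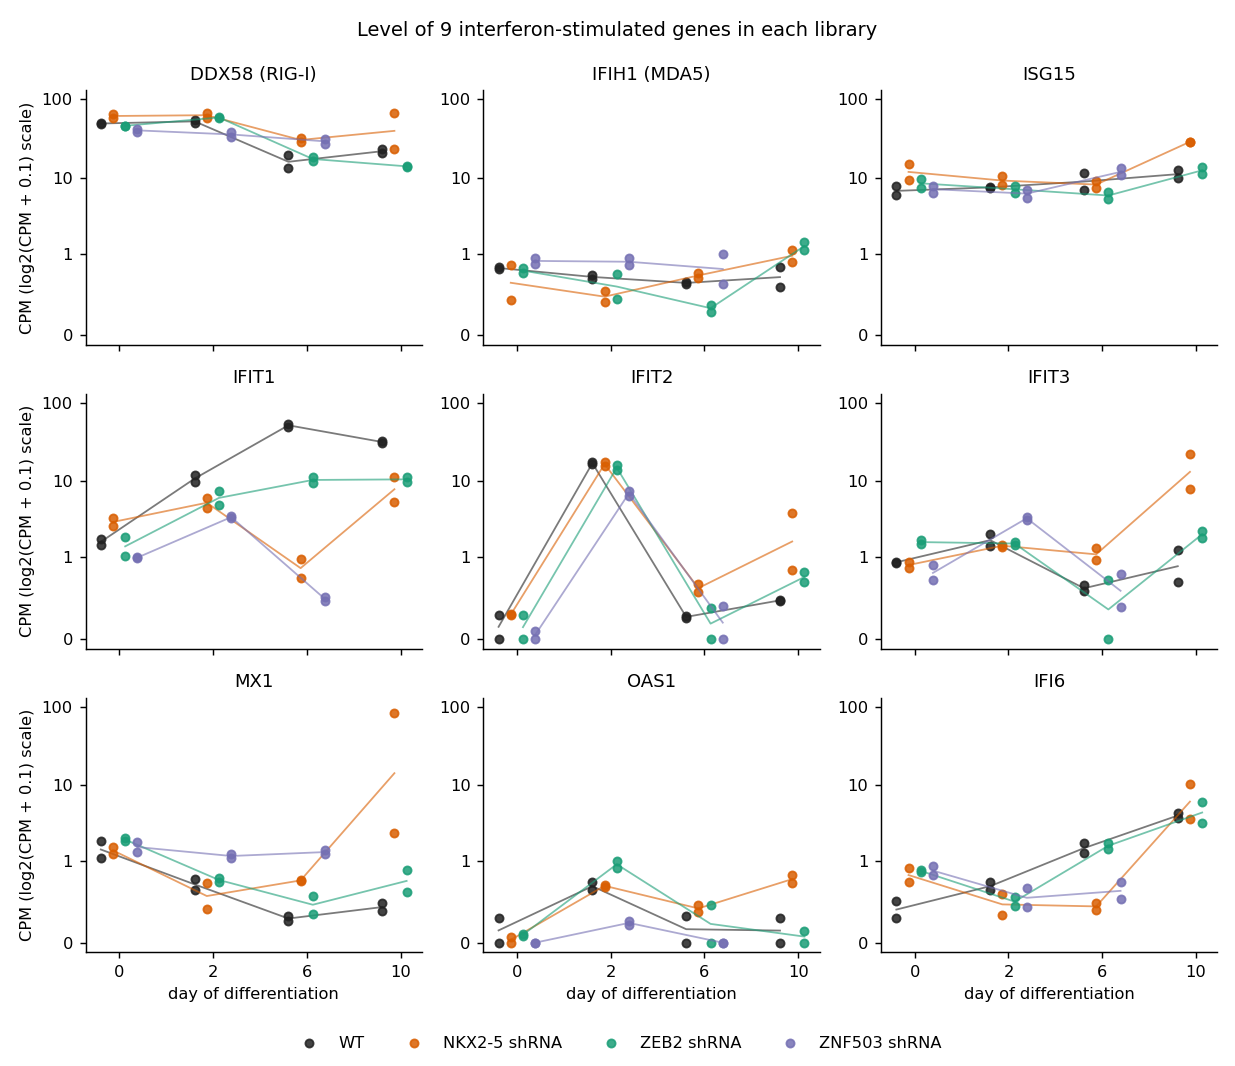
Level of each of the 9 genes in CPM, on a log2(CPM + 0.1) scale, by day of differentiation, with 1 point per library, coloured by cell line, and a line through the mean of the 2 libraries on that scale. IFIT1 in WT rises from 1.47 and 1.78 at day 0 to 53.8 and 50.1 at day 6, IFIT2 peaks at day 2 in all lines, and 1 NKX2-5 shRNA library at day 10 reaches 82.2 for MX1.

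IFI6 rose in WT, from 0.107 and 0.235 CPM at day 0 to 1.73 and 1.28 at day 6 and 3.76 and 4.3 at day 10, and was called at both later days (log2 fold changes 3.11 and 4.57). MX1 fell, from 1.09 and 1.86 CPM at day 0 to 0.0867 and 0.12 at day 6, and was called lower there. DDX58, the sensor RIG-I, was at 50 and 48.5 CPM in WT stem cells, at 54.5 and 50.5 on day 2 and at 13.2 and 19.4 on day 6, a decrease of 1.56 on the log2 scale between days 0 and 6 (adjusted p = 2.28e-05). ISG15 stayed between 5.91 and 12.5 CPM in the 8 WT libraries. IFIH1, the sensor MDA5, was between 0.0999 and 1.45 CPM in all 30 libraries. Of the 9 members tested in WT, 3 were called higher at day 2, 2 higher and 1 lower at day 6, and 2 higher at day 10, where 8.36%, 10.2% and 15.5% of all genes were called in either direction.

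Divided by exonic length, so that genes can be set side by side, DDX58 and ISG15 led the WT stem cells with 10.6 and 10.7 CPM per kb. IFIT1 stood at 0.377 CPM per kb at day 0 and reached 12.1 at day 6, close to the 14.5 of ISG15 and above the 3.53 of DDX58. IFIT2 was at 5.04 CPM per kb at day 2 and at or below 0.0621 on the other days, and OAS1 did not exceed 0.261 on any day. The 2 sensors of the same family were thus measured at very different levels, DDX58 at 3.53 to 11.3 CPM per kb and IFIH1 at 0.102 to 0.173.

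IFIT1 was the member that differed most from WT at day 6. It was at 53.8 and 50.1 CPM in WT, 11.4 and 9.51 with ZEB2 shRNA, 0.956 and 0.501 with NKX2-5 shRNA and 0.204 and 0.243 with ZNF503 shRNA. No 2 of these groups overlapped, and the ZNF503 shRNA value was made of 4 and 6 reads. Against WT, IFIT1 was 76.1-fold lower with NKX2-5 shRNA (log2 fold change -6.25, SE 0.264, adjusted p = 3.73e-09), 228-fold lower with ZNF503 shRNA (log2 fold change -7.83, SE 0.322, adjusted p = 4.64e-09) and 4.92-fold lower with ZEB2 shRNA (log2 fold change -2.30, SE 0.203, adjusted p = 1.92e-05). The first 2 were called and the third was below the 8-fold threshold. The lines also differed from each other: IFIT1 was lower with NKX2-5 shRNA than with ZEB2 shRNA (log2 fold change -3.95, adjusted p = 1.59e-07) and higher with ZEB2 shRNA than with ZNF503 shRNA (log2 fold change 5.53, adjusted p = 1.38e-07), both called, as were 4.59% and 3.48% of all genes, while the NKX2-5 and ZNF503 shRNA lines differed by 1.58 (adjusted p = 0.0398), which was not called (0.395% of all genes were).

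**Figure D2:**
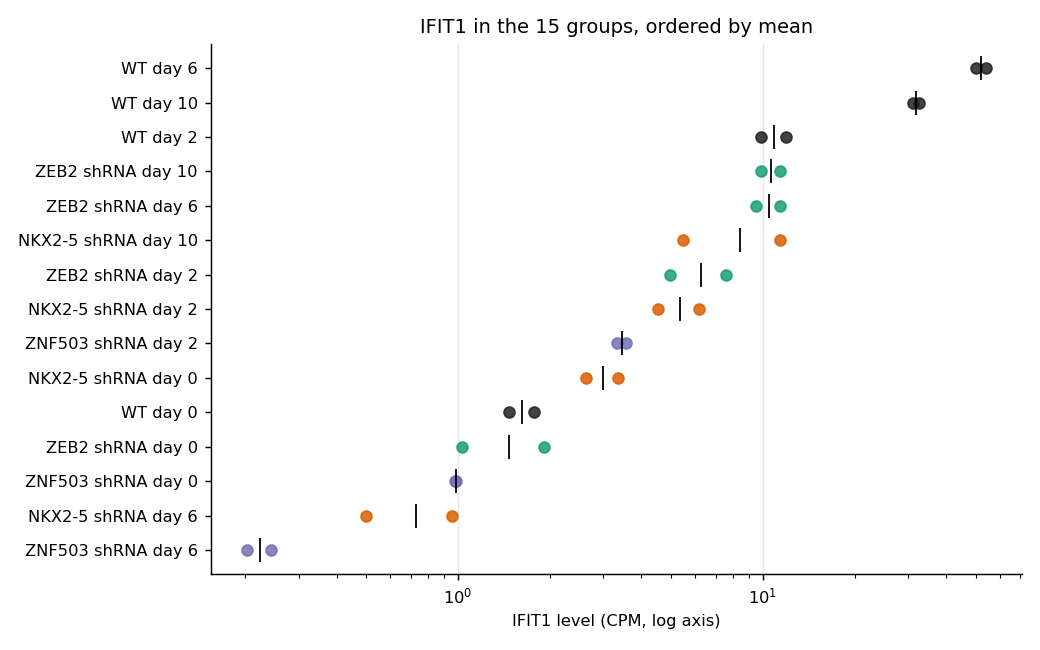
IFIT1 level in CPM (log axis) in each of the 15 groups of 1 line and day, ordered by the group mean, with the 2 libraries of each group as points coloured by cell line and a bar at the mean. The WT groups of days 6, 10 and 2 lead with means of 52, 31.8 and 10.9, and the NKX2-5 and ZNF503 shRNA groups of day 6 are lowest with 0.728 and 0.223.

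The order of the 15 groups by mean IFIT1 level opened with WT day 6 (52 CPM), WT day 10 (31.8) and WT day 2 (10.9), followed by ZEB2 shRNA day 10 (10.6) and day 6 (10.4) and NKX2-5 shRNA day 10 (8.44). The lowest groups were ZNF503 shRNA day 0 (0.985), NKX2-5 shRNA day 6 (0.728) and ZNF503 shRNA day 6 (0.223). The libraries of 7 of the 14 neighbouring pairs in this order overlapped, and the first 2 steps, from WT day 6 to WT day 10 and on to WT day 2, did not. In the NKX2-5 and ZNF503 shRNA lines IFIT1 was lower at day 6 than in their own stem cells, by 2.03 and 2.09 on the log2 scale (adjusted p = 0.00776 and 0.00101, not called), whereas in WT and ZEB2 shRNA it was higher. The change from day 0 to day 6 differed from that in WT by -7.12 in the NKX2-5 shRNA line (adjusted p = 6.79e-10), -7.10 in the ZNF503 shRNA line (adjusted p = 1.11e-08) and -2.17 in the ZEB2 shRNA line (adjusted p = 0.00489). The first 2 differences were called, as were 3.67% and 2.84% of all genes.

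A lower IFIT1 level was measured as early as day 2. WT had 11.9 and 9.87 CPM, NKX2-5 shRNA 6.18 and 4.54, ZEB2 shRNA 7.55 and 4.96, and ZNF503 shRNA 3.56 and 3.33. The differences from WT passed 5% FDR with NKX2-5 shRNA (log2 fold change -1.05, SE 0.226, adjusted p = 0.00384) and ZNF503 shRNA (log2 fold change -1.72, SE 0.233, adjusted p = 7.98e-05) but were under the 4-fold threshold, and that with ZEB2 shRNA did not pass (log2 fold change -0.855, SE 0.224, adjusted p = 0.153). At day 10 WT had 32.5 and 31.1 CPM of IFIT1, NKX2-5 shRNA 11.4 and 5.48, and ZEB2 shRNA 9.85 and 11.4. Both lines passed as lower than WT at 5% FDR, with a log2 fold change of -1.90 (SE 0.366, adjusted p = 0.00583) for NKX2-5 shRNA and of -1.59 (SE 0.36, adjusted p = 0.0246) for ZEB2 shRNA, and neither was called. Without NKX2-5 shRNA replicate 1 the former was -2.53 and without its replicate 2 -1.47. The ZEB2 shRNA difference at day 10 no longer passed 5% FDR when any of the 4 libraries of its groups was left out (log2 fold changes -1.48, -1.69, -1.55 and -1.61 without ZEB2 shRNA replicates 3 and 4 and WT replicates 3 and 4).

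LIPA, the lysosomal acid lipase gene around the IFIT genes, did not show the pattern of IFIT1 at day 6. It was looked up after its values were seen. Its level there was 22.8 and 27.0 CPM in WT, 26.0 and 28.1 with NKX2-5 shRNA (log2 fold change 0.11, adjusted p = 0.634) and 15.8 and 23.0 with ZNF503 shRNA (log2 fold change -0.36, adjusted p = 0.112). At day 10, however, LIPA was at 150 and 93 CPM with NKX2-5 shRNA and 27.4 and 11.7 in WT (log2 fold change 2.63, adjusted p = 0.00318), moving with IFIT3 and IFIT2 there. IFIT5, the family member beyond IFIT1, was also named after its values were seen. It was lower along with IFIT1 at days 6 and 10 but not at day 2, when it was at 15.5 and 12.9 CPM in WT, 19 and 15.1 with NKX2-5 shRNA (log2 fold change 0.23, adjusted p = 0.291) and 16.6 and 14.6 with ZNF503 shRNA (0.08, adjusted p = 0.756). At day 6 IFIT5 was at 29.1 and 25.6 CPM in WT, 10.4 and 10.1 with NKX2-5 shRNA (log2 fold change -1.42, adjusted p = 2.45e-05) and 6.56 and 8.31 with ZNF503 shRNA (log2 fold change -1.88, adjusted p = 3.83e-06). At day 10 it was at 27.5 and 27.3 in WT, 13.1 and 12.8 with NKX2-5 shRNA (log2 fold change -1.08, adjusted p = 0.00748) and 11.2 and 11.5 with ZEB2 shRNA (log2 fold change -1.28, adjusted p = 0.0103).

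The cardiomyocyte markers moved with IFIT1 at day 6, with all 6 called lower than WT with NKX2-5 and with ZNF503 shRNA and with ZEB2 shRNA none called and 4 lower at 5% FDR. The summed hepatic and endoderm markers moved the other way, at 323 to 658 CPM in WT, 3.13e+03 to 3.23e+03 with NKX2-5 shRNA and 2.34e+03 to 2.48e+03 with ZNF503 shRNA. The part of these cell type differences in the IFIT1 values was not tested.

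IFI6 was also lower in the NKX2-5 and ZNF503 shRNA lines at day 6, at levels near 1 CPM in WT. It was at 1.73 and 1.28 CPM in WT, 1.75 and 1.47 with ZEB2 shRNA, 0.221 and 0.16 with NKX2-5 shRNA and 0.254 and 0.486 with ZNF503 shRNA. WT and ZEB2 shRNA overlapped, and the other lines lay below both. The differences from WT were -3.00 with NKX2-5 shRNA (SE 0.5, adjusted p = 0.000333) and -1.97 with ZNF503 shRNA (SE 0.486, adjusted p = 0.00459), neither past 8-fold. Against ZEB2 shRNA the NKX2-5 shRNA line was lower by 3.14 (log2 fold change -3.14, adjusted p = 0.000271), which was called.

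MX1 and DDX58 went the opposite way to IFIT1 in these lines at day 6. DDX58 was at 13.2 and 19.4 CPM in WT, 18.4 and 16.4 with ZEB2 shRNA, 28.6 and 32.3 with NKX2-5 shRNA and 27.1 and 31.4 with ZNF503 shRNA, so that the last 2 lay above WT without overlap (log2 fold changes 0.89 and 0.83, adjusted p = 0.00164 and 0.00246, not called). MX1 was at 0.0867 and 0.12 CPM in WT (2 and 5 reads), 0.515 and 0.521 with NKX2-5 shRNA, and 1.22 and 1.42 with ZNF503 shRNA (24 and 35 reads). By counts it was 12.3 times as high with ZNF503 shRNA as in WT (95% interval 5.61 to 31.9, exact, counting error only), and it was called (log2 fold change 3.57, SE 0.612, adjusted p = 0.000399). With NKX2-5 shRNA the ratio was 4.79 (2.12 to 12.7), and the call at 5% FDR (log2 fold change 2.23, adjusted p = 0.0124) was lost without any 1 of the 4 libraries compared: without NKX2-5 shRNA replicate 1 or 2 the log2 fold change was 2.23 or 2.22, and without WT replicate 1 or 2 it was 2.07 or 2.51. The MX1 difference with NKX2-5 shRNA was also lost in 1 fit of all libraries. ISG15, IFIT3 and IFIH1 did not pass 5% FDR against WT at day 6 in any line. IFIH1 had 6 and 2 reads with ZEB2 shRNA (0.0999 and 0.147 CPM), 12 and 26 with NKX2-5 shRNA and 7 and 24 with ZNF503 shRNA, and ZEB2 shRNA was lower than both at 5% FDR (adjusted p = 0.0318 and 0.0109), not called. IFIT3 was highest with NKX2-5 shRNA, at 1.32 and 0.901 CPM against 0.303 and 0.385 in WT (log2 fold change 1.63, adjusted p = 0.0759).

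Of the 7 members tested at day 6, 1 was called lower and none higher with NKX2-5 shRNA, where 4.71% of all genes were called. With ZNF503 shRNA 1 was called higher and 1 lower (3.91% of all genes), and with ZEB2 shRNA none was called (0.462% of all genes) and 1 passed 5% FDR. At 5% FDR with no fold threshold the counts were 2 higher and 2 lower with NKX2-5 shRNA and 2 higher and 2 lower with ZNF503 shRNA, but 49.1% and 55.7% of all genes passed as well. The median log2 fold change of the members was 0.39, -0.09 and 0.38 with NKX2-5, ZEB2 and ZNF503 shRNA. These medians were not stable: the second was -0.77 without ZEB2 shRNA replicate 1, the third was -0.63 without ZNF503 shRNA replicate 2, and the first was 0.63 without ZEB2 shRNA replicate 2 or either ZNF503 shRNA library. The members therefore did not move together at this day, since the large decrease of IFIT1 and that of IFI6 stood beside increases of MX1 and DDX58.

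**Figure D3:**
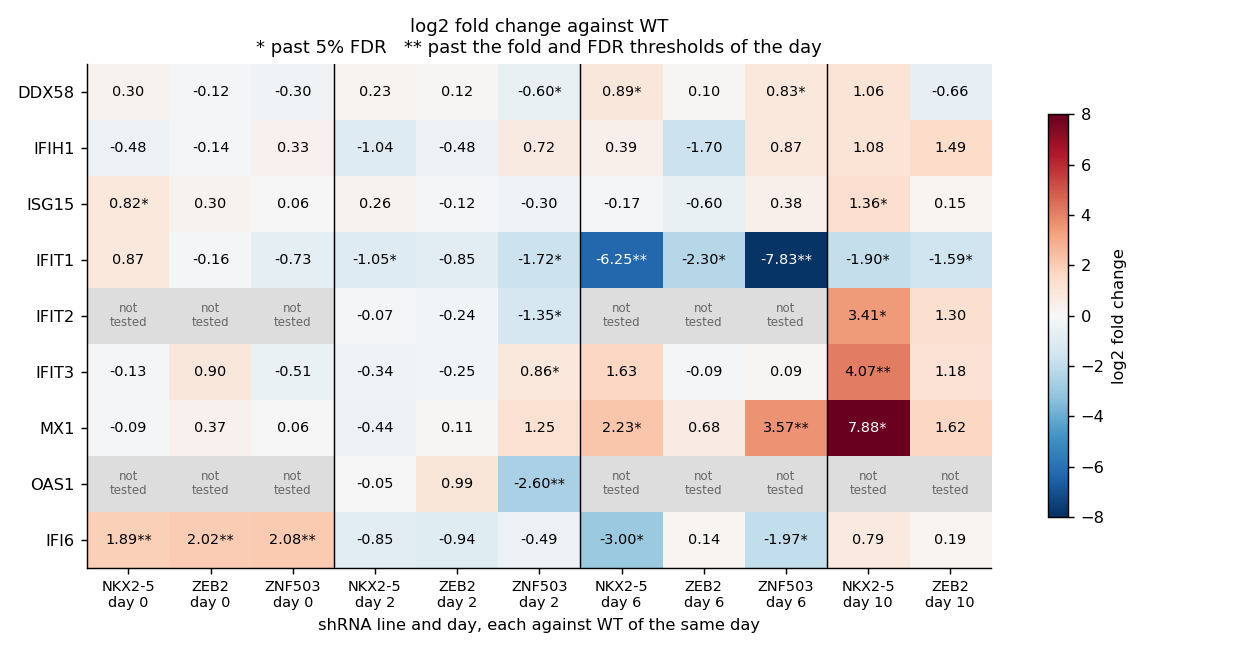
Log2 fold change (edgeR) of each of the 9 genes, in rows, in each shRNA line against WT of the same day, in columns, printed in each cell and shown by colour from blue (lower) to red (higher). A single asterisk marks values past 5% FDR, a double asterisk those past the fold and FDR thresholds of the day, and grey cells were not tested. The deepest blue cells are IFIT1 at day 6 with NKX2-5 and ZNF503 shRNA (-6.25 and -7.83) and the deepest red is MX1 at day 10 with NKX2-5 shRNA (7.88).

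At day 10 several members were higher with NKX2-5 shRNA than in WT, while IFIT1 remained lower. IFIT3 was at 22.1 and 7.89 CPM with NKX2-5 shRNA, 1.85 and 2.26 with ZEB2 shRNA and 1.24 and 0.43 in WT (4 to 24 reads in WT and 167 to 464 with NKX2-5 shRNA). It was 16.7-fold higher than in WT (log2 fold change 4.07, SE 0.674, adjusted p = 0.00326) and was the only member called of 8 tested, where 7.31% of all genes were called. Leaving out NKX2-5 shRNA replicate 1 gave a log2 fold change of 3.09 for IFIT3 and leaving out replicate 2 one of 4.58. It was 5.12 without WT replicate 3 and 3.62 without WT replicate 4. The number of members called in such fits is given below. ISG15 was at 29.0 and 28.6 CPM with NKX2-5 shRNA, 13.7 and 11.3 with ZEB2 shRNA and 12.5 and 9.89 in WT (log2 fold change 1.36, SE 0.248, adjusted p = 0.00472). These were the highest ISG15 levels of any library, and the 2 NKX2-5 shRNA libraries agreed closely.

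MX1 was at 82.2 CPM in NKX2-5 shRNA replicate 1 and 2.36 in replicate 2, which were 1724 and 50 reads, against 3 and 2 reads in the WT libraries (0.155 and 0.215 CPM) and 0.741 and 0.341 CPM with ZEB2 shRNA. Over all reads, the ratio to WT was 242 (95% interval 103 to 745, counting error only). The edgeR test gave a log2 fold change of 7.88 (SE 1.82, adjusted p = 0.0117), past 5% but not 1% FDR. Without replicate 1 the log2 fold change was 3.71, and without replicate 2 it was 8.84. Without WT replicate 3 or 4 (log2 fold change 7.60 or 8.07) it did not pass 5% FDR. IFIT2 was at 3.86 and 0.662 CPM with NKX2-5 shRNA, 0.618 and 0.427 with ZEB2 shRNA and 0.206 and 0.215 in WT, 95 reads against 6 (ratio 10.8, interval 4.78 to 30.1). Its call at 5% FDR (log2 fold change 3.41, SE 1.01, adjusted p = 0.0294) was lost without NKX2-5 shRNA replicate 1 (log2 fold change 1.64), and also without WT replicate 3 or 4 (3.37 or 3.44) or ZEB2 shRNA replicate 3 or 4 (3.40 and 3.40). OAS1 had 23 reads in the 2 NKX2-5 shRNA libraries and 2 in WT, and was removed by the filter on low counts.

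DDX58 was at 67.9 and 23.2 CPM with NKX2-5 shRNA and 23.3 and 20.5 in WT, so that only replicate 1 was clearly above WT (log2 fold change 1.06, SE 0.453, adjusted p = 0.0933). IFI6 was at 10.3 and 3.59 CPM with NKX2-5 shRNA against 3.76 and 4.3 in WT and did not pass (log2 fold change 0.79, adjusted p = 0.288). At 5% FDR 4 members were higher and 1 lower with NKX2-5 shRNA (43.9% of all genes passed), and 1 was lower with ZEB2 shRNA (18.2% of all genes passed), with which no member was called (1.46% of all genes were). The median log2 fold change of the members was 1.22 with NKX2-5 shRNA and 0.68 with ZEB2 shRNA, with the median of all genes within 0.03 of 0. The number called with NKX2-5 shRNA was 2 without its replicate 1, 3 without its replicate 2, and 0 without WT replicate 3 or WT replicate 4.

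The NKX2-5 shRNA libraries of day 10 differed from each other by more than any other pair of replicates, with a chi-square per gene of 107 against 5.33 to 45.3 in the other groups. Summed over the 9 members they held 228 and 73.5 CPM. Replicate 1 was the higher one for 7 of 9 members and at least 2-fold higher for 6. Of all genes, 48.3% were higher in replicate 1, 8.61% at least 2-fold higher and 9.92% at least 2-fold lower. The MX1 ratio between the 2 libraries was equalled or exceeded by 19 of 16814 genes (0.113%). The 42 other interferon-stimulated genes of the list summed to 799 and 798 CPM in the same 2 libraries, of which ADAR alone held 294 and 292. The equal sums did not mean equal genes. Of the 34 compared, 14 were higher in replicate 1, with 5 at least 2-fold higher and 9 at least 2-fold lower. Genes of receptors and the JAK-STAT pathway summed to 748 and 749 CPM, and cardiomyocyte markers to 54.5 and 350. The list of 9 NF-kappaB response genes, cytokines and adhesion molecules among them, summed to 275 and 120 CPM, higher in replicate 1 as the members were, against 58.2 to 71.3 in WT and 106 to 110 with ZEB2 shRNA. Of its 8 genes tested against WT, 5 were higher with NKX2-5 shRNA at 5% FDR and none was called, where 43.9% of all genes passed and 7.31% were called. The part of this list in the members' values was not tested. The series describes its replicates as biological without saying what separated them.

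**Figure D4:**
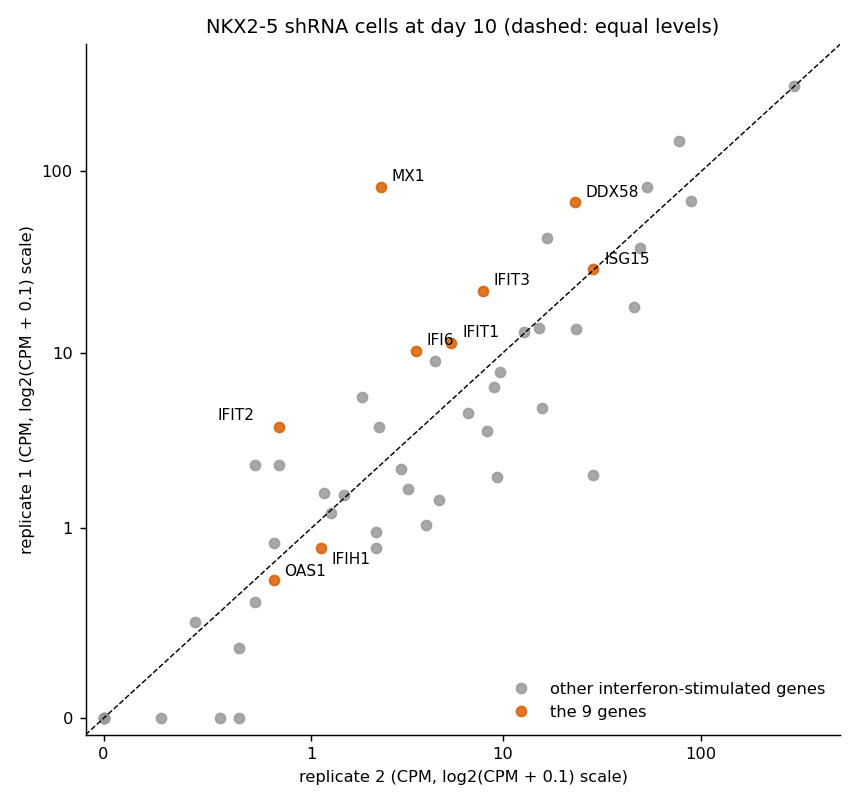
Level in NKX2-5 shRNA replicate 1 against replicate 2 at day 10, in CPM on log2(CPM + 0.1) axes, for the 9 genes (orange, named) and the other interferon-stimulated genes of the list (grey), with a dashed line of equal levels. MX1 stands farthest from the diagonal at 82.2 against 2.36, whereas ISG15 lies near it at 29.0 against 28.6.

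At day 10 the NKX2-5 shRNA libraries also held 912 to 1.1e+03 CPM of summed haematopoietic markers against 12.3 to 42.4 in WT, with 5 of 5 tested markers called higher, led by the embryonic globin HBE1 at 694 and 790 CPM. Of the white blood cell markers on that list, PTPRC had no reads in either NKX2-5 shRNA library and at most 0.124 CPM in any library, while the myeloid genes SPI1 and CD14 had their highest level of all 30 libraries in NKX2-5 shRNA replicate 1, at 0.763 and 0.572 CPM (16 and 12 reads, against 4 and 5 in replicate 2, 3 and 4 in WT replicate 3 and 0 and 3 in WT replicate 4). Hepatic and endoderm markers summed to 2.69e+04 to 3.85e+04 CPM against 1.47e+03 to 3.6e+03 in WT. Their part in the higher IFIT3, ISG15 and MX1 was not tested. ZEB2 shRNA differed from NKX2-5 shRNA at the same day for 4 members at 5% FDR, all higher with NKX2-5 shRNA: IFIT3 (log2 fold change 2.88, adjusted p = 0.0187), ISG15 (1.21, adjusted p = 0.0163), MX1 (6.26, adjusted p = 0.0272) and DDX58 (1.72, adjusted p = 0.0368). Of all genes 10.5% passed as higher. None of the members was called, and 1.95% of all genes were. The change from day 0 to day 10 was larger with NKX2-5 shRNA than in WT for IFIT3 (difference of log2 fold changes 4.14, adjusted p = 0.000195) and MX1 (7.96, adjusted p = 0.000112), and smaller for IFIT1 (-2.81, adjusted p = 2.59e-05). The first 2 were called, as were 6.81% of all genes. The spread of each gene in these tests came from all 30 libraries, while the 2 NKX2-5 shRNA libraries of day 10 held 1724 and 50 reads of MX1. The test of day 10 alone did not call MX1.

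Day 2 was the day on which ZNF503 shRNA, rather than NKX2-5 shRNA, stood apart. IFIT2 was at 6.56 and 7.51 CPM with ZNF503 shRNA against 17.6 and 16.6 in WT (log2 fold change -1.35, SE 0.158, adjusted p = 2.02e-05). DDX58 was at 38.8 and 32.9 CPM against 54.5 and 50.5 (log2 fold change -0.60, SE 0.105, adjusted p = 0.000609). OAS1 had 8 reads in the ZNF503 shRNA libraries and 21 in WT, a ratio of 0.162 once depth was taken into account (interval 0.0622 to 0.381), and was the only member called (log2 fold change -2.60, adjusted p = 0.00834), where 2.8% of all genes were. That call was lost without ZNF503 shRNA replicate 1 (log2 fold change -2.25) or WT replicate 1 (log2 fold change -2.36). IFIT3 went the other way, at 3.47 and 3.19 CPM with ZNF503 shRNA against 2.06 and 1.41 in WT (log2 fold change 0.86, adjusted p = 0.0363), a call that was lost without either ZNF503 shRNA library (0.82 or 0.88) or WT replicate 2 (0.65). In all, 4 of 9 members were lower and 1 higher at 5% FDR with ZNF503 shRNA (26.9% of all genes passed), 1 was lower with NKX2-5 shRNA (26.7%), and none passed with ZEB2 shRNA (0.49%). In 1 fit of all libraries IFIT2, DDX58, OAS1 and IFIT3 no longer passed with ZNF503 shRNA, whereas IFIT1 did. IFIT3 did not pass with DESeq2 either. No member was called with NKX2-5 or ZEB2 shRNA, where 1.19% and 0.133% of all genes were. From day 0 to day 2 IFI6 had a log2 fold change of 1.37 in WT, from 4 and 9 reads at day 0, which every difference from WT includes. The difference of changes was -2.73 with NKX2-5 shRNA and -2.94 with ZEB2 shRNA, neither called (adjusted p = 0.197 and 0.219). With ZNF503 shRNA, where the log2 fold change was -1.15, the difference was -2.53, called at 10% FDR as were 2.49% of all genes. ZNF503 itself did not differ from WT at this day (log2 fold change -0.23, adjusted p = 0.714), and the pluripotency factor NANOG was at 114 and 105 CPM in this line against 47.2 and 45.9 in WT (log2 fold change 1.18, adjusted p = 5.4e-07), with 5 of 6 pluripotent cell markers higher at 5% FDR. All 6 mesendoderm markers were lower at 5% FDR, with a sum of 1.01e+03 to 1.21e+03 CPM against 2.95e+03 to 3.05e+03 in WT, as were the 3 hepatic and endoderm markers tested. The part of these markers in the members' values was not tested. LIPA was also lower in this line at day 2, at 53.6 and 48.6 CPM against 76.5 and 71.5 (log2 fold change -0.59, adjusted p = 0.000598). Of the IFIT genes, IFIT1 and IFIT2 were lower there too, IFIT3 was higher and IFIT5 did not pass.

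In stem cells before differentiation IFI6 was higher in all 3 shRNA lines than in WT. It was at 0.107 and 0.235 CPM in WT (4 and 9 reads), 0.488 and 0.788 with NKX2-5 shRNA, 0.693 and 0.74 with ZEB2 shRNA and 0.629 and 0.829 with ZNF503 shRNA, and the WT libraries lay below the other 6. The log2 fold changes were 1.89, 2.02 and 2.08 (adjusted p = 0.0291, 0.0449 and 0.0311), and IFI6 was the only member called in each line, where 4.03%, 2.2% and 2.56% of all genes were called. All 3 comparisons share the 2 WT libraries. In 1 fit of all libraries none of the 3 passed 5% FDR. That of NKX2-5 shRNA was also lost with only the 2 groups fitted, and that of ZEB2 shRNA with the replicate block. Without WT replicate 1 the log2 fold changes were 1.43, 1.57 and 1.63, and without WT replicate 2 they were 2.56, 2.70 and 2.76, and none then passed 5% FDR. That of NKX2-5 shRNA was also lost without its replicate 2 (1.48), that of ZEB2 shRNA without its replicate 1 or 2 (2.06 or 1.98) or ZNF503 shRNA replicate 1 or 2 (2.02 and 2.02), and that of ZNF503 shRNA without its replicate 1 or 2 (2.24 or 1.86). ISG15 was at 9.34 and 15.1 CPM with NKX2-5 shRNA against 7.76 and 5.91 in WT (log2 fold change 0.82, adjusted p = 0.0369), and this call was lost in 10 of 16 alternatives. These were leaving out NKX2-5 shRNA replicate 2 (0.43), WT replicate 1 or 2 (1.03 or 0.64) or ZNF503 shRNA replicate 1 or 2 (0.82 and 0.82), no TMM, summed rows, the replicate block, only the 2 groups, and 1 fit of all libraries. At 5% FDR 15.9%, 3.93% and 7.53% of all genes passed with NKX2-5, ZEB2 and ZNF503 shRNA. IFIT1 was at 2.64 and 3.35 CPM with NKX2-5 shRNA at day 0, above 0.989 and 0.98 with ZNF503 shRNA (log2 fold change 1.60, adjusted p = 0.00431, called, as were 6.99% of all genes), and IFIT3 was at 1.51 and 1.71 with ZEB2 shRNA, above 0.764 and 0.456 with ZNF503 shRNA (log2 fold change 1.41, adjusted p = 0.0107, called, as were 7.61% of all genes).

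**Figure D5:**
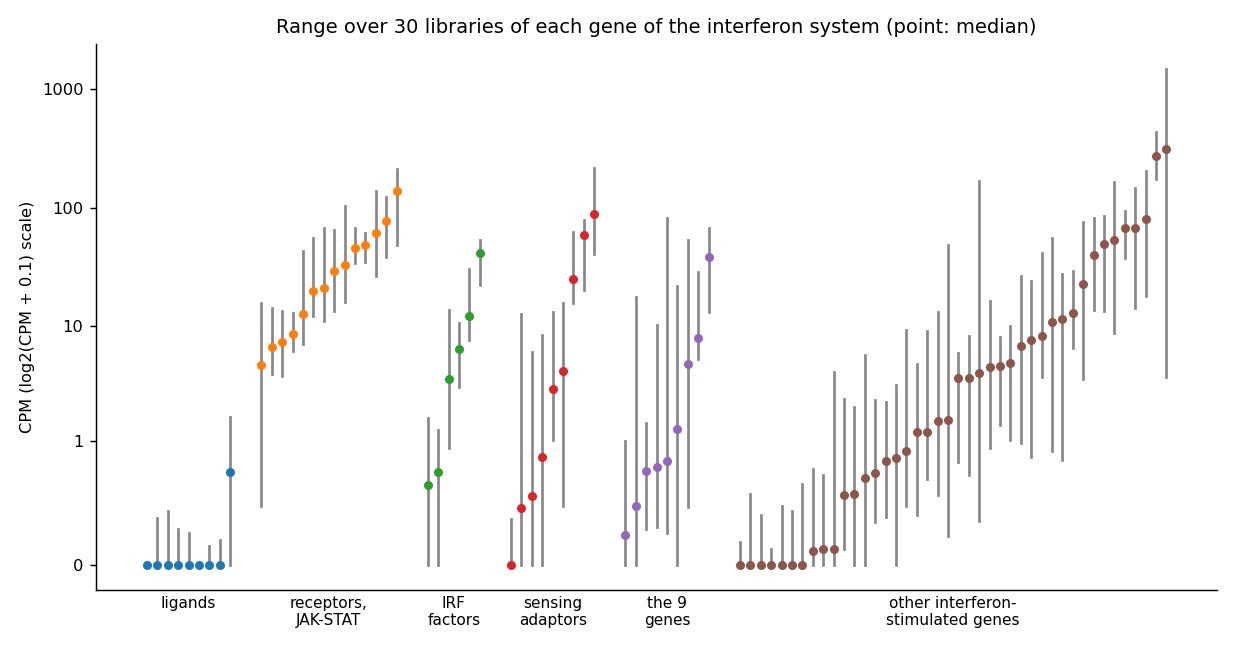
Range of each gene of the interferon system over the 30 libraries, in CPM on a log2(CPM + 0.1) scale, as a grey line from the lowest to the highest library with a point at the median. Genes are grouped by role and ordered by median within a group; the ligands stay at or below 1.64 in every library, and the widest of the 9 genes, MX1, spans 0.0867 to 82.2.

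Interferon itself was hardly detected in any group. Of 9 ligand genes on the list, IFNB1, IFNA1, IFNK, IFNG, IFNL1, IFNL2 and IFNL3 had at most 3 reads in every library, and IFNB1 and IFNL1 had 0 in all 30. IFNE, an epithelial type I interferon, reached at most 1.64 CPM and was not called in any line. At day 6 it was higher with ZNF503 shRNA at 5% FDR (log2 fold change 2.18, SE 0.679, adjusted p = 0.0165), and at day 10 it had 53 and 22 reads with ZEB2 shRNA against 2 and 0 in WT, which did not pass (adjusted p = 0.0546). IFNA2, the remaining ligand, had at most 7 reads in any library. The receptor chains were present throughout, with IFNAR1 at 13.5 to 65.2 CPM and IFNAR2 at 7.01 to 43.5, as were the adaptor MAVS at 40.6 to 216 CPM and the RNA-binding effectors ADAR at 174 to 429 and EIF2AK2 (PKR) at 37.8 to 93.4. IFNAR2 was higher at day 6 with NKX2-5 shRNA (log2 fold change 1.01, adjusted p = 0.00321) and ZNF503 shRNA (1.10, adjusted p = 0.00178). The 14 receptor and JAK-STAT genes went both ways there at 5% FDR. With NKX2-5 shRNA 3 were higher and 3 lower, and with ZNF503 shRNA 4 were higher and 2 lower, where 49.1% and 55.7% of all genes passed. The endosomal RNA sensor TLR3 lay between 0 and 6.09 CPM, with its highest values at day 0.

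Of 14 receptor and JAK-STAT genes, 6 were higher and 1 lower at day 10 with NKX2-5 shRNA at 5% FDR, where 43.9% of all genes passed, and none was called. IRF9 was at 13.6 and 14.3 CPM in that line against 6.29 and 6.02 in WT (log2 fold change 1.18, SE 0.27, adjusted p = 0.0112), and STAT2 at 138 and 133 against 84.2 and 92.3 (log2 fold change 0.62, adjusted p = 0.0228). Both passed 5% FDR, and neither differed between the NKX2-5 shRNA libraries as MX1 did. IRF1, itself an interferon-responsive factor, was higher at day 10 with ZEB2 shRNA, at 8.99 and 13.7 CPM against 1.7 and 1.72 in WT (log2 fold change 2.71, SE 0.405, adjusted p = 0.00647). IRF3, which acts below MAVS, was higher at day 10 with NKX2-5 shRNA (log2 fold change 0.93, adjusted p = 0.00834) and ZEB2 shRNA (0.94, adjusted p = 0.0187), and IRF7 was higher at day 0 with NKX2-5 shRNA (0.90, adjusted p = 0.00556). None of the 6 regulatory factors on the list was called in any comparison with WT. Of 14 receptor and JAK-STAT genes the only one called was the feedback inhibitor SOCS3 (ZEB2 shRNA, day 0, log2 fold change 1.07), where 2.2% of all genes were.

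Among the 9 sensing adaptors of the list, those called with a line were IKBKE, the kinase IKKε, lower at day 0 with NKX2-5 shRNA (log2 fold change -1.06, adjusted p = 0.0114), and TICAM1, the TLR3 adaptor, lower at day 2 with ZNF503 shRNA (-2.05, adjusted p = 0.0177). The DNA sensor cGAS (MB21D1) was called lower at day 0 with ZNF503 shRNA (-1.12, adjusted p = 0.0106) and higher at day 10 with NKX2-5 shRNA, at 3.82 and 2.88 CPM against 0.412 and 0.215 in WT (3.31, adjusted p = 0.006). Its partner STING (TMEM173) was called lower at day 10 with ZEB2 shRNA, at 1.05 and 0.725 CPM against 12.1 and 12.8 (-3.79, adjusted p = 0.00252). Of all genes, 4.03%, 2.8%, 2.56%, 7.31% and 1.46% were called in these comparisons, in the order given.

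Of the 42 other interferon-stimulated genes on the list, 31 were tested at day 6. With NKX2-5 shRNA 8 were higher and 9 lower than WT at 5% FDR and 2 were called lower, and with ZNF503 shRNA 9 were higher and 11 lower and 3 were called lower. Of all genes, 49.1% and 55.7% passed 5% FDR in these comparisons and 4.71% and 3.91% were called. BST2 (tetherin), which holds budding virus at the cell surface, was called lower in both (log2 fold changes -3.54 and -4.65, adjusted p = 7.32e-07 and 2.91e-07). UBE2L6, the conjugating enzyme for ISG15, was likewise called lower in both: it was at 52.7 and 39.2 CPM in WT, 4.52 and 5.65 with NKX2-5 shRNA (log2 fold change -3.17, adjusted p = 2.68e-07) and 3.51 and 4.78 with ZNF503 shRNA (-3.46, adjusted p = 2.47e-07). It was at 20.3 and 15.8 CPM with ZEB2 shRNA (-1.33, adjusted p = 0.00116), between WT and the other 2 lines. DDX60L was called lower with ZNF503 shRNA (-4.05, adjusted p = 3.82e-05). At day 10 with NKX2-5 shRNA 9 of 32 were higher and 6 lower at 5% FDR, where 43.9% of all genes passed. Of these genes 3 were called higher and 2 lower, where 7.31% of all genes were called. SP110, a nuclear body protein, was called higher there (4.41, adjusted p = 0.00623), as was the exonuclease ISG20 (4.05, adjusted p = 0.00808). Both were near the floor in WT, with 2 and 0 reads of SP110 and 8 and 2 of ISG20. The NKX2-5 shRNA libraries held 33 and 32 reads of SP110 and 42 and 197 of ISG20, the latter lower in replicate 1. UBE2L6 was called lower in that line (-3.74, adjusted p = 0.000169), so that ISG15 was higher in the line in which its conjugating enzyme was lower. At day 0 SP110 was called lower with ZNF503 shRNA (-1.69), together with EPSTI1 (-2.25) and MX2 (-1.35). The ubiquitin ligase TRIM22 was called higher at day 0 with ZEB2 shRNA (1.14, adjusted p = 0.0126) and at day 2 with ZNF503 shRNA (2.41, adjusted p = 9.43e-05), and MX2 was called lower at day 2 with ZEB2 shRNA (-2.31, adjusted p = 0.0463). Of all genes, 2.56% and 2.2% were called at day 0 with ZNF503 and ZEB2 shRNA, and 2.8% and 0.133% at day 2.

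Across the 15 group means the members were only loosely alike. Pearson's r of log2 CPM over the 36 pairs of members had a median of 0.222, with 12 pairs below 0 and 10 at 0.5 or above, from -0.606 (IFI6 and DDX58) to 0.823 (IFIT2 and OAS1). It was 0.575 for IFIT1 and IFI6 and -0.457 for IFIT1 and MX1. These values describe group means that share days, lines and libraries. The group with the highest mean was WT day 6 for IFIT1, WT day 2 for IFIT2, NKX2-5 shRNA day 2 for DDX58, ZEB2 shRNA day 2 for OAS1, ZEB2 shRNA day 10 for IFIH1 and NKX2-5 shRNA day 10 for IFIT3, IFI6, ISG15 and MX1. In these orders the libraries of neighbouring groups overlapped in 7 of 14 steps for IFIT1, IFIT2 and DDX58, 10 for IFIT3 and MX1, 11 for IFI6 and OAS1, and 13 for ISG15 and IFIH1, so the order of the last 2 was mostly not resolved.

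Averaged over the members after standardising each, the mean level was highest in NKX2-5 shRNA day 10 (1.52 SD above the mean of all groups) and lowest in ZEB2 shRNA day 6 (-0.789). WT day 2 came next to the highest at 0.349, so a correlation with this average rests largely on the NKX2-5 shRNA group of day 10. The 5 other genes whose group means followed this average most closely were RAB27B (Pearson's r = 0.924), DUOX1 (0.916), PHKA2-AS1 (0.912), ZFYVE19 (0.9) and BRME1 (0.894), over 15 group means. The NKX2-5 shRNA libraries of day 10 held 40.8 and 59.2 CPM of RAB27B and 35.8 and 5.1 of DUOX1, so that DUOX1 shared with MX1 its higher value in replicate 1 and RAB27B did not.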

How the data were processed

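Total RNA was sequenced from stranded libraries on an Illumina HiSeq2500. Per the labels and the study's methods, the authors aligned reads to hg19 (GRCh37) with TopHat2 2.0.14, Bowtie2 2.2.1.0 and SAMtools 0.1.19.0, and deposited raw read counts per RefSeq transcript, not normalized. Whether counting used strand is not given in the sources used here. Of 34 libraries 30 were used: the columns of WT and ZEB2 shRNA replicates 1 and 2 at day 10 (4 columns) hold 1077 further rows in another order and were not used. RefSeq names were matched for 40285 of 41627 accessions (97.1% of the counts), and the row with the largest total stood for each gene.

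Counts were tested with edgeR 4.0.16 (quasi-likelihood, TMM, filterByExpr) in R 4.3.3, with all lines of a day in 1 fit, Benjamini-Hochberg adjustment over all genes tested (16443 to 17004), and the study's thresholds. Changes over time were fitted within each line, and differences of changes (interaction terms) in 1 fit of the 30 libraries. DESeq2 1.42.0 was an alternative. CPM levels use TMM factors over all 30 libraries, so ratios of printed levels differ slightly from the fitted fold changes. CPM per kb uses the exonic length of the MANE Select transcript. Groups of at most a few reads are given as ratios of counts with exact 95% intervals, and 3 reads were taken as the floor. SE is that of the log2 fold change. The test was checked on data simulated from the day 0 libraries, with a fixed spread and for genes well above the floor. That check does not cover members at a few reads or the spread between the day 10 libraries. The text names all 9 members, the targeted genes, genes fixed by role, up to 3 genes called with the largest change per list and comparison, and the 5 most similar genes (mean of at least 1 CPM). LIPA and IFIT5 were added after their values were seen. The members and lists were chosen with earlier results of these data known. The series text calls the replicates biological, but no source used here says whether they were separate cultures or differentiations, so p-values measure the spread between these samples, whatever separated them. Replicate numbers were not taken as pairs.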

Additional observations from a re-analysis of the deposited data

Results flagged for a closer look

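Changes from day 0 that differed between a line and WT by the interaction test at the study's thresholds are given here as differences of log2 fold changes, line minus WT. For IFIT1 the difference at day 6 was -7.119 with NKX2-5 shRNA and -7.103 with ZNF503 shRNA. For IFI6 it was -4.889 with NKX2-5 shRNA and -4.039 with ZNF503 shRNA at day 6, and -2.528 with ZNF503 shRNA at day 2, the last past 10% but not 5% FDR. These IFI6 values include its lower level in WT at day 0, which was 4 and 9 reads. At day 10 the difference with NKX2-5 shRNA was 4.136 for IFIT3 and 7.956 for MX1, the latter with 1724 and 50 reads in the 2 libraries.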

How the results depend on the processing

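No test result reversed its direction, though some medians of the members changed sign. Of the alternatives to the counts of members called, 151 of 182 against WT, 87 of 107 between lines, 72 of 86 over time and 11 of 16 for differences of changes stayed within 1.5 times the reported count, and of 383 alternatives for single members 329 kept their side of the threshold. Of 106 alternatives to the members' median log2 fold change 27 moved it by more than the spread. Its ranges were 0.25 to 0.68, -0.77 to -0.07 and -0.63 to 0.73 with NKX2-5, ZEB2 and ZNF503 shRNA at day 6, and 1.22 to 1.615 and 0.18 to 0.975 with NKX2-5 and ZEB2 shRNA at day 10. The low counts of IFI6, MX1, IFIT2 and OAS1 in WT and the 2 libraries per group limit these calls.

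At 5% FDR with no fold threshold, the main counts are given for comparisons in which an alternative moved them by over 1.5 times. At day 0 the only pass with ZEB2 shRNA, that of IFI6, was lost with the replicate block and in 1 fit of all libraries. The only pass with ZNF503 shRNA at that day, again IFI6, was lost in that fit. The members passing against WT were 2 (NKX2-5 shRNA, day 0), 1 and 5 (NKX2-5 and ZNF503 shRNA, day 2), 4, 1 and 4 (NKX2-5, ZEB2 and ZNF503 shRNA, day 6), and 5 and 1 (NKX2-5 and ZEB2 shRNA, day 10). Between lines they were 3 (NKX2-5 against ZNF503 shRNA, day 0), 8 and 5 (NKX2-5 and ZEB2 against ZNF503 shRNA, day 2), 4, 1 and 6 (NKX2-5 against ZEB2, NKX2-5 against ZNF503 and ZEB2 against ZNF503 shRNA, day 6) and 4 (NKX2-5 against ZEB2 shRNA, day 10), where 25.8%, 39.5%, 29.3%, 44.4%, 14.7%, 49.2% and 21.3% of all genes passed in that order. Over time they were 5 (WT, day 10), 2 and 7 (NKX2-5 shRNA, days 6 and 10), 6, 7 and 7 (ZEB2 shRNA, days 2, 6 and 10) and 3 (ZNF503 shRNA, day 6), where 73.8%, 55.5%, 69.2%, 56.9%, 63.3%, 78.1% and 68.4% of all genes passed. For differences of changes they were 1 and 4 (NKX2-5 shRNA, days 2 and 10), 1 and 1 (ZEB2 shRNA, days 6 and 10) and 0 (ZNF503 shRNA, day 2), where 0.914%, 46.8%, 3.9%, 23.4% and 10.5% of all genes passed. DESeq2 called 2 members for NKX2-5 shRNA against WT at day 6 and 2 at day 10, and DESeq2 size factors in edgeR gave 2 at day 6. A fit of all libraries together gave 1 for ZNF503 shRNA at day 6 and 3 for NKX2-5 shRNA at day 10, and no filter on low counts gave 2 there. Without TMM, NKX2-5 against ZEB2 shRNA at day 0 gave 1 and ZEB2 shRNA at day 10 against day 0 gave 2. The cause was not tested.

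Leaving out 1 library at a time gave these ranges of members called against WT: 1 to 3 (NKX2-5 shRNA, day 0), 0 to 1 (ZEB2 and ZNF503 shRNA, day 0, and ZNF503 shRNA, day 2), 1 to 2 (NKX2-5 shRNA, day 6) and 0 to 3 (NKX2-5 shRNA, day 10). Between lines the ranges were 0 to 2, 1 to 2 and 0 to 1 at day 0 (NKX2-5 against ZEB2, NKX2-5 against ZNF503, ZEB2 against ZNF503 shRNA), 0 to 3 at day 2 (NKX2-5 against ZNF503 shRNA), 1 to 2 at day 6 (NKX2-5 against ZEB2 and ZEB2 against ZNF503 shRNA) and 0 to 2 at day 10. Over time they were 1 to 5 (NKX2-5 shRNA, day 10), 2 to 4, 2 to 3 and 2 to 3 (WT, days 2, 6 and 10), 2 to 3, 1 to 2 and 0 to 2 (ZEB2 shRNA, days 2, 6 and 10).

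With the replicate number as a block, NKX2-5, ZEB2 and ZNF503 shRNA against WT gave 1, 1 and 1 at day 0, 0, 0 and 1 at day 2, and 1, 0 and 2 at day 6, the same counts as without it. At 5% FDR the block lost ISG15 with NKX2-5 shRNA (log2 fold change 0.84) and IFI6 with ZEB2 shRNA (2.06), both at day 0. Deviations of same-numbered libraries correlated at -0.275 to 0.398 over 19 pairs of groups, 4 of them over 0.1. All 4 were at day 2, where the shRNA lines correlated with each other at 0.398, 0.103 and 0.168 and with WT at 0.00102 to 0.115. With 2 libraries per group this does not establish pairing, and the numbers were not taken as pairs. Blocked counts between lines at day 2 were 0, 1 and 1 (NKX2-5 against ZEB2, NKX2-5 against ZNF503 and ZEB2 against ZNF503 shRNA), the same as without the block.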
